A study of Homo sapiens with 4 samples.

Results

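The collagen chain genes and the genes that modify, fold, trim and cross-link their products were examined in BEAS-2B, an established line of immortalised human bronchial epithelial cells. Members were taken by symbol: every gene named COL, a number, A and a number, together with prolyl 3-hydroxylase P3H1, the P4HA and PLOD hydroxylases, the chaperone SERPINH1, LOX and LOXL1 to LOXL4, BMP1 and PCOLCE. This gave 59 of the 39634 genes with values in the table, made up of 44 chains and 15 processing genes. LEPRE1, the older name of P3H1, did not appear as a separate gene.

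The question of the series was which transcripts change when the tyrosine kinase FER is depleted. Polyadenylated RNA was sequenced from 2 libraries labelled FerKD (Fer knockdown, with a short hairpin RNA, shRNA, against Fer) and 2 control libraries (a control shRNA), all from BEAS-2B cells grown in N2B27, a serum-free medium. How the shRNA was delivered, whether the cells were 1 clone or a mixed population, and whether the replicates were separate cultures is not given in the sources used here, so a p-value here covers only library-to-library spread, possibly technical. The libraries labelled FerKD held 21422976 and 25169713 counts and the control libraries 21772587 and 22857051.

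Collagens are trimers of chains that carry a repeated glycine at regular spacing. In the endoplasmic reticulum, prolyl hydroxylases stabilise the triple helix, lysyl hydroxylases prepare the cross-linking sites, and the chaperone HSP47 (SERPINH1) holds the folded procollagen. After export, proteinases cut off the end propeptides and lysyl oxidases start the cross-links between chains. Epithelial cells are best known for the collagens of the basement membrane and of the junction with it (types IV, VII, XVII and XVIII), and fibroblasts for the fibrillar types I and III.

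Type IV collagen, the network of the basement membrane, comes from genes that lie in head-to-head pairs and share their upstream regions, which is why the promoter windows of a pair are shown here. The RefSeq windows (GRCh38.p14, from 250 bases before to 50 bases after each start) of COL4A5 and COL4A6 lie at chrX:108439588-108439887 on the plus strand and chrX:108439409-108439708 on the minus strand. RefSeq gives COL4A6 2 windows, and the one used here is that whose start lies closest to the start of COL4A5. The starts of these windows are 380 bases apart, and capitals mark the 121 bases that both windows cover, read on opposite strands. COL4A1, at chr13:110307108-110307407 on the minus strand, stands for the other pair. Its start is 127 bases from that of COL4A2, and its capitals mark the 226 bases shared with the COL4A2 window.
COL4A5: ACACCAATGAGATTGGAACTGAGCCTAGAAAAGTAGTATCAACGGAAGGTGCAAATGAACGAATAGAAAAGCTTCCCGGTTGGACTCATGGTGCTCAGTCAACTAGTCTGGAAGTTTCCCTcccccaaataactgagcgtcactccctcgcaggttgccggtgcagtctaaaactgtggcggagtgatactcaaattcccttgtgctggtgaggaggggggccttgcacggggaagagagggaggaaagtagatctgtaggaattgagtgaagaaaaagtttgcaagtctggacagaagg
COL4A6: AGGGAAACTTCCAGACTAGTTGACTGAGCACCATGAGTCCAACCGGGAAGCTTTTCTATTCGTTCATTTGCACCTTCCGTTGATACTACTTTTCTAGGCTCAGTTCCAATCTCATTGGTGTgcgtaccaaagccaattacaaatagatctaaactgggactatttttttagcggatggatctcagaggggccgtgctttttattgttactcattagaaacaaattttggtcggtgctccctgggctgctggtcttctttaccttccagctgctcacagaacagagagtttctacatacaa
COL4A1: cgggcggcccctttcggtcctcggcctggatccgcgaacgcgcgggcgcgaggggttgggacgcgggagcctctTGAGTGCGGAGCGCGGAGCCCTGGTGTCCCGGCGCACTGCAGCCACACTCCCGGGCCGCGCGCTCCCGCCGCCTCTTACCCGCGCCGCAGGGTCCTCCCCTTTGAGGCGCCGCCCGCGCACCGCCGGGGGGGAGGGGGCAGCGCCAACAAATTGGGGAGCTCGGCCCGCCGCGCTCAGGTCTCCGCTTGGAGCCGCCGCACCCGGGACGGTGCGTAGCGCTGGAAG

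The pairs differ in composition. The COL4A5 and COL4A6 windows are 49.3% and 43.7% G or C, against 76.7% for COL4A1 and 77.7% for COL4A2 and a median of 58.7% over all promoter windows. The letters CCAAT, searched on both strands, occur 2 times in the COL4A5 window, 3 times in that of COL4A6, and 1 time each in those of COL4A1 and COL4A2. GGGCGG occurs 2 times at COL4A1, 1 time at COL4A2 and 0 times at COL4A5 and COL4A6, and TATAAA occurs in 0 of the 4 windows. Matches in the shared bases are counted in both windows of a pair. Both CCAAT matches of COL4A5 are the same bases as 2 of the 3 in COL4A6. The CCAAT of COL4A1 and COL4A2 is 1 shared site, and the GGGCGG of COL4A2 is also 1 of the 2 at COL4A1. Among 35116 windows of all genes, 34.6% hold CCAAT, 45% GGGCGG and 11.5% TATAAA. RefSeq gave 60 windows for 44 of the 59 members, of which 30% hold CCAAT, 55% GGGCGG and 15% TATAAA. None of the 3 motifs contains another, and a match describes letters only.

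FER itself, the targeted gene, had no lower mRNA in the libraries labelled FerKD. FER had 404 and 535 counts there, against 334 and 459 counts in control, which is 19.0 ± 1.66 CPM (the count scaled by library size with TMM factors) in the libraries labelled FerKD and 18.8 ± 3.42 CPM in control (SD, n = 2 each). Its log2 fold change was 0.02 (95% interval -0.37 to 0.40; edgeR quasi-likelihood test, adjusted p = 0.976). Every direction below is therefore that of libraries carrying the knockdown label. Mitochondrial genes took 9.62% and 9.37% of counts in the libraries labelled FerKD, against 16.9% and 19.4% in control. Over all genes, the median absolute log2 difference between replicates was 0.117 in the libraries labelled FerKD and 0.260 in control.

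The labelled cell type, lung epithelium, was checked against marker genes, and markers of both epithelium and mesenchyme were found. The keratins KRT8, KRT18 and KRT7 were abundant, with KRT8 at 1826 and 1848 CPM in the libraries labelled FerKD and 2094 and 1602 CPM in control. The defining epithelial genes were low: EPCAM had 3.48 and 4.97 CPM in the libraries labelled FerKD and 2.74 and 3.41 CPM in control, and CDH1 had 9.78 and 10.5 CPM in the libraries labelled FerKD and 7.53 and 7.33 CPM in control. Of 10 tested epithelial markers 0 passed the edgeR test, and 3 were at an unadjusted p under 0.05 (30%, against 17.7% of all genes). A positive log2 fold change was found for 7, and the median was 0.18. KRT17 had the smallest p (log2 fold change 0.77, edgeR adjusted p = 0.0552). KRT7 came next, with the opposite sign (-0.40, adjusted p = 0.169). The basal markers KRT5, KRT14 and TP63 and the club cell marker SCGB1A1 were too low to be tested. Of 10 fibroblast and mesenchyme markers, the collagen-binding proteoglycans DCN and LUM were at 0 in every library, and the list summed to 1313 and 1277 CPM in the libraries labelled FerKD, against 2063 and 1849 CPM in control. Most of that sum was the intermediate filament gene VIM, at 903 and 896 CPM in the libraries labelled FerKD and 1455 and 1256 CPM in control (log2 fold change -0.59, edgeR adjusted p = 0.0549), which shares 24.4% of its exonic bases with other genes. Of the 6 tested genes of the list 4 had a negative log2 fold change, and the median was -0.22. Only 1 fell past the threshold, the surface glycoprotein THY1, at -0.77 (edgeR adjusted p = 0.0302), where 0.646% of all tested genes were called. THY1 shares 10.7% of its exonic bases with another gene. At an unadjusted p under 0.05 there were 2 of the list, both lower (33.3%, against 17.7% of all genes). TWIST1 was at -0.32, CDH2 at -0.11, PDGFRB at 0.01 and S100A4 at 0.28. Endothelial markers summed to 1.9 to 3.0 CPM per library and smooth muscle markers to 60.3 to 99.7 CPM. Most of the latter was ACTA2, at 64.5 and 57.5 CPM in the libraries labelled FerKD and 96.8 and 78.8 CPM in control. ACTA2 had a log2 fold change of -0.53 (edgeR adjusted p = 0.116) and shares 30.1% of its exonic bases with other genes. Of 4 blood markers, HBB was at 0, and PTPRC and CD68 were too low to be tested. CD14 had 16.3 and 17.3 CPM in the libraries labelled FerKD and 24.7 and 15.8 CPM in control. The part of these marker shifts in the collagen values was not tested. In bulk RNA, fewer cells that express a gene and less RNA of it per cell cannot be told apart.

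A broad collagen repertoire was detected at very unequal levels. Of the 44 chains, 6 had 0 counts in every library: COL6A5, COL9A1, COL11A2, COL19A1, COL22A1 and COL25A1. A count of 0 allows up to 3 counts, or 0.119 to 0.140 CPM before scaling, in a library. A further 10 chains were too low to be tested, with at most 14 counts in any library and at most 33 over the 4: COL1A2, COL4A3, COL6A3, COL6A6, COL10A1, COL11A1, COL21A1, COL23A1, COL24A1 and COL28A1. The low-count filter left 43 members, 28 chains and all 15 processing genes. It kept COL3A1, COL14A1, COL15A1 and COL20A1 largely through counts in the libraries labelled FerKD, so their fold changes are partly fixed by the filter.

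Levels were compared between genes as CPM divided by the table's gene length in kilobases. On that scale 19 chains and 15 of the 15 processing genes averaged at least 1 over the 4 libraries. By that mean, in CPM per kilobase, the 12 highest members were LOXL2 (111), LOXL1 (73.6), BMP1 (54.8), SERPINH1 (50.8), PLOD1 (36.7), COL6A1 (34.1), PLOD3 (33.6), COL6A2 (26), COL5A1 (23.4), COL4A6 (22.5), COL4A5 (21.9) and COL4A2 (20.9). For LOXL2, the highest, the group means were 94.3 in the libraries labelled FerKD and 127 in control. Processing genes held the first 5 places, and the chains among the 12 belonged to types VI, V and IV by this length. The 5 chains with the most counts held 59.0% of all chain counts. The length column was within 5% of the union of all exons in GENCODE 29 for 53 of the 59 members, and was 0.985 to 3.10 times the longest transcript. With the longest transcript in its place 10 of the same 12 genes led, but the order of the chains differed: COL4A2 (62.1) came before COL6A1 (42.7), and COL4A6 and COL5A1 were no longer among the 12.

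**Figure D1:**
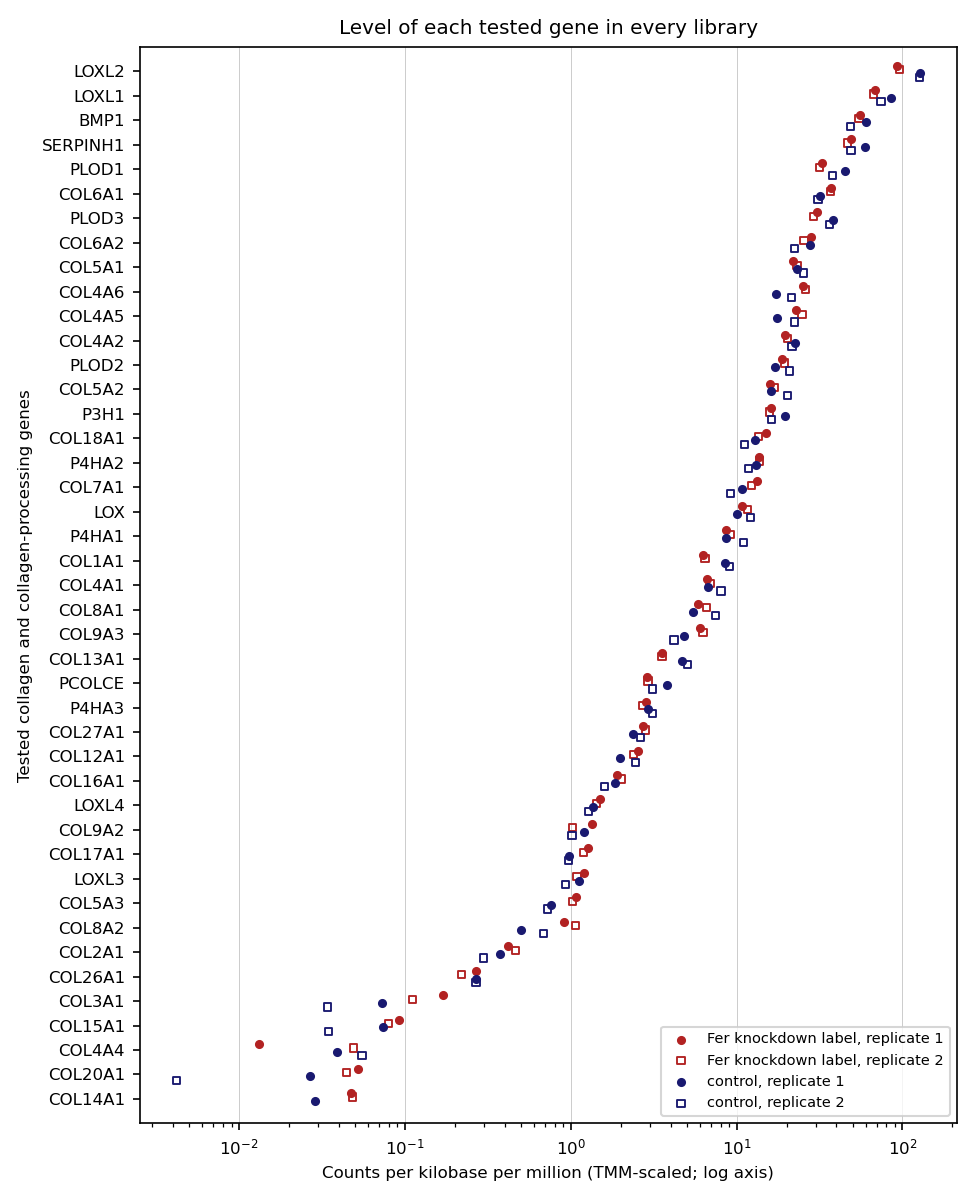
Level of each tested member in each library, as CPM per kilobase on a log axis, with libraries labelled FerKD and control libraries marked apart. Each point is 1 library; the levels run from LOXL2 at the top to COL14A1, whose value of 0 in control replicate 2 is not drawn.

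No member passed the test between the groups. Across all 15336 tested genes 99 passed an adjusted p of 0.05 by the edgeR quasi-likelihood test (0.646%), and 0 of the 43 tested members did. At an unadjusted p under 0.05 there were 11 members (25.6%, 6 higher and 5 lower), against 17.7% of all genes. The 6 higher members include COL3A1, so this share is partly fixed by the filter. The groups of libraries did not overlap for 29 of 43 members (67.4%, 18 higher and 11 lower in the libraries labelled FerKD), against 49.2% of all genes. Without COL3A1, COL14A1, COL15A1 and COL20A1, whose place among the higher genes the filter partly fixes, it was 25 of 39 (64.1%, 14 higher and 11 lower). DESeq2 called 2 of the 37 members to which it gave an adjusted p, LOXL2 (adjusted p = 0.0310) and COL1A1 (adjusted p = 0.0431), both lower, against 4.69% of all genes.

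The fold changes were small. The median log2 fold change was 0.10 over the 43 members, 0.21 over the 28 chains and -0.14 over the 15 processing genes, against 0.01 over all tested genes. Of the chains 19 had a positive and 9 a negative value, and of the processing genes 6 a positive and 9 a negative one. Over all tested genes 7959 values were positive and 7377 negative. The 19 positive chains include COL3A1, COL14A1, COL15A1 and COL20A1, whose sign is partly fixed by the filter. These medians rest partly on the low chains and on the scaling: with at least 5 CPM required in 2 libraries they were -0.00205 over members and 0.143 over chains, against -0.00940 over all genes, and with library totals alone 0.264 and 0.374, against 0.178. For 32 of the 43 members the 95% interval of the log2 fold change held 0. All 33 tested members with a mean of at least 5 CPM had an interval within 1 log2 unit of 0, that is, within a change of 2-fold.

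The outcome turned on the control libraries. Without control replicate 1 the same test called 18 of 45 members (40%, against 29.5% of all genes), and without control replicate 2 it called 15 of 44 (34.1%, against 20.6%). In those fits the single control library is assumed to vary as little as the pair labelled FerKD. Called in both single-control fits, which share the libraries labelled FerKD, were 8 of 44 members (18.2%, against 11.4% of all genes): LOXL2, COL1A1, COL13A1, COL9A3, COL4A6, COL7A1, PLOD1 and PLOD3. Without either library labelled FerKD 0 members were called.

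**Figure D2:**
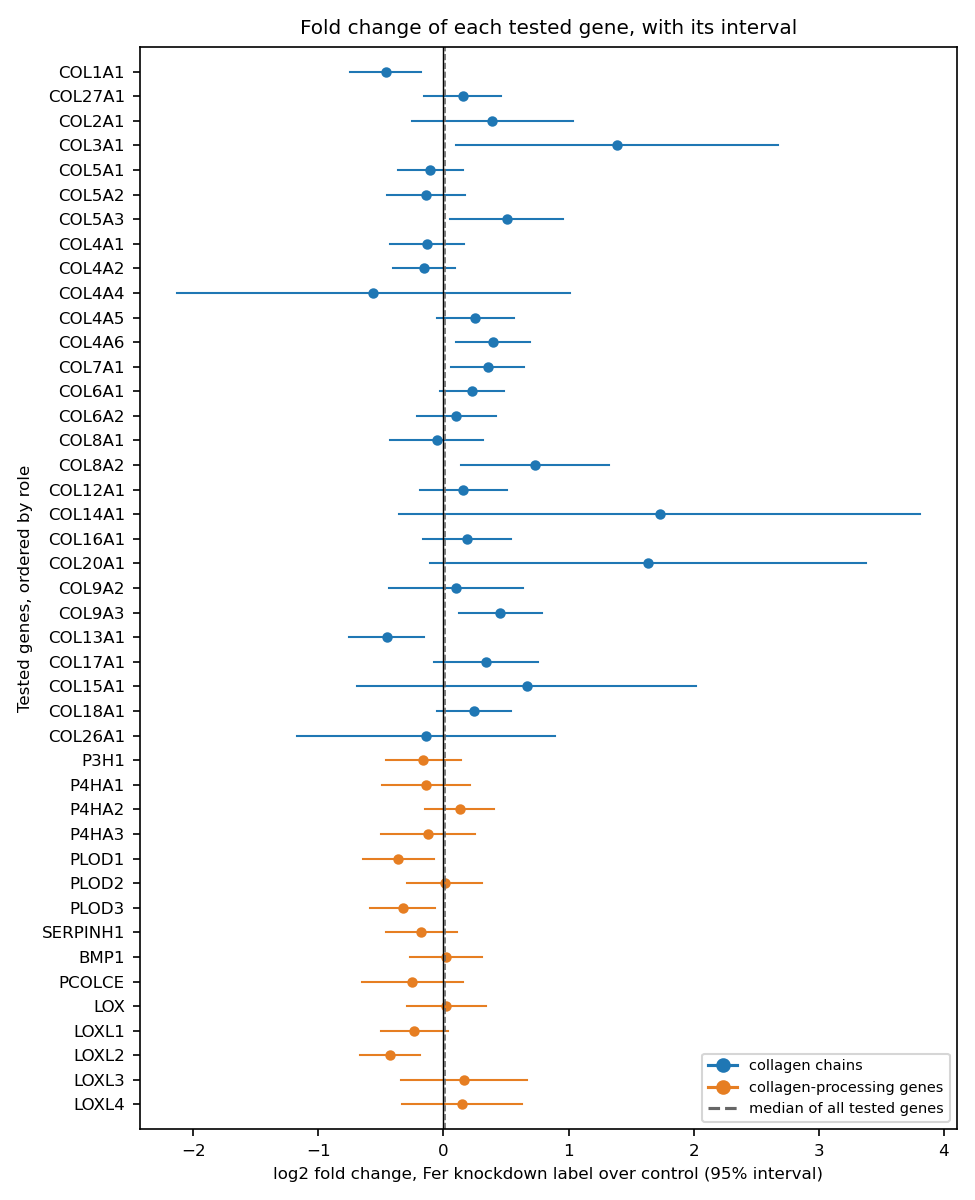
Log2 fold change of each tested member, libraries labelled FerKD over control, with its 95% interval from edgeR's quasi-likelihood fit; the dashed line is the median of all tested genes. For 32 of the 43 members the interval holds 0, and the widest intervals belong to the chains with the fewest counts.

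Among the fibrillar chains, which build the banded fibrils of connective tissue, COL1A1 had the smallest p. COL1A1, the main chain of type I collagen (ENSG00000108821, chromosome 17), had 56.7 and 58.0 CPM in the libraries labelled FerKD, against 76.9 and 81.2 CPM in control. Both libraries labelled FerKD lay below both controls. The log2 fold change was -0.46 ± 0.13 (SE; 95% interval -0.74 to -0.18), with an adjusted p of 0.112 in edgeR. Its partner chain COL1A2, with which it normally forms the type I trimer, had 0 and 3 counts in the libraries labelled FerKD and 1 and 2 in control, against 1287 and 1541 counts of COL1A1 in the libraries labelled FerKD and 1572 and 1760 in control. Type I transcripts in this line were therefore almost wholly those of COL1A1.

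COL5A1 and COL5A2, chains of the type V collagen that starts fibrils, were more abundant than COL1A1 per kilobase. COL5A1 had 244 and 258 CPM in the libraries labelled FerKD, against 257 and 284 CPM in control, and the groups overlapped. Its log2 fold change was -0.11 (95% interval -0.37 to 0.16). The least abundant type V chain, COL5A3, had 7.31 and 6.93 CPM in the libraries labelled FerKD, against 5.14 and 4.89 CPM in control, with no overlap (log2 fold change 0.51 ± 0.20 SE, edgeR adjusted p = 0.237). COL3A1, the fibrillar collagen typical of fibroblasts, had 26 and 20 counts in the libraries labelled FerKD and 10 and 5 in control (log2 fold change 1.39 ± 0.58 SE, adjusted p = 0.248), close to the low-count filter. Of the 7 tested fibrillar chains 5 had groups that did not overlap (71.4%, against 49.2% of all genes). Of these, COL2A1, COL3A1, COL5A3 and COL27A1 were higher in the libraries labelled FerKD and COL1A1 was lower. The place of COL3A1 among the higher chains, and so this share, is partly fixed by the filter.

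The type IV chains had opposite signs in the 2 expressed gene pairs, with no test of that difference across genes. COL4A6 (ENSG00000197565, chromosome X) had 232 and 241 CPM in the libraries labelled FerKD, against 161 and 199 CPM in control. Its head-to-head neighbour COL4A5 (ENSG00000188153) had 272 and 295 CPM in the libraries labelled FerKD, against 209 and 266 CPM in control. For both genes each library labelled FerKD lay above each control library. The log2 fold change was 0.39 ± 0.13 (SE; adjusted p = 0.171 in edgeR) for COL4A6 and 0.25 ± 0.14 (adjusted p = 0.377) for COL4A5.

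The other pair, COL4A1 and COL4A2, encodes the chains found in nearly all basement membranes. COL4A2 had 375 and 389 CPM in the libraries labelled FerKD, against 434 and 416 CPM in control, without overlap, and a log2 fold change of -0.15 (95% interval -0.40 to 0.09) that is 0.01 when libraries are scaled by their totals alone. COL4A1 had 96.8 and 101 CPM in the libraries labelled FerKD and 98.9 and 118 CPM in control, with overlapping groups. The COL4A5 and COL4A6 windows printed above thus belong to the pair that was higher in the libraries labelled FerKD, and the COL4A1 window to the pair that was not, though none of the 4 genes passed the test. COL4A3 and COL4A4, the remaining pair that occurs in kidney and lung basement membranes, had at most 13 counts in any library.

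Within a library the type IV balance does not depend on scaling. The ratio of COL4A5 plus COL4A6 to COL4A1 plus COL4A2, per kilobase, was 1.84 and 1.88 in the libraries labelled FerKD, against 1.20 and 1.48 in control. The groups did not overlap (exact permutation test, two-sided p = 0.333, the smallest that 2 against 2 libraries allow), and this ratio was chosen after the values were seen. COL4A5/COL4A6 itself was 0.915 and 0.955 in the libraries labelled FerKD and 1.02 and 1.04 in control, also without overlap. COL4A1/COL4A2 was 0.340 and 0.343 in the libraries labelled FerKD and 0.300 and 0.374 in control, so control replicates spanned both. The level of each ratio depends on the gene lengths used. In raw counts COL4A5/COL4A6 was 1.17 and 1.22 in the libraries labelled FerKD and 1.30 and 1.33 in control. The ratio of COL4A5 plus COL4A6 to COL4A1 plus COL4A2 was then 1.07 and 1.09, against 0.695 and 0.870 in control.

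**Figure D3:**
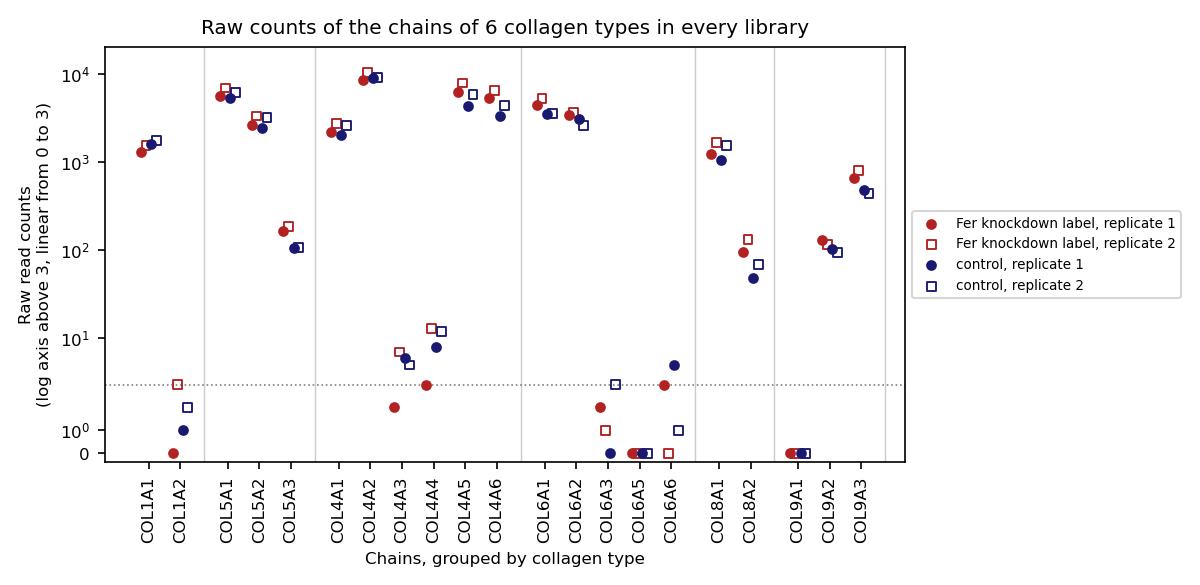
Raw counts of the chains of 6 collagen types in each library (log axis above 3, linear from 0 to 3), libraries labelled FerKD left of control; the dotted line marks 3 counts, the limit that a count of 0 allows. COL4A5 and COL4A6 lie higher in both libraries labelled FerKD, and COL1A2 and COL6A3 lie near the limit beside abundant partners.

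COL7A1 and COL13A1, neither past the threshold, had opposite signs. COL7A1, which forms the anchoring fibrils under epithelia, had 146 and 137 CPM in the libraries labelled FerKD, against 119 and 102 CPM in control, without overlap (log2 fold change 0.35 ± 0.13 SE, edgeR adjusted p = 0.199). COL13A1, a membrane-spanning collagen of cell contacts (chromosome 10), had 35.1 and 35.1 CPM in the libraries labelled FerKD and 46.1 and 50.1 CPM in control. Its groups did not overlap either (log2 fold change -0.45 ± 0.13 SE, adjusted p = 0.131). COL17A1, the hemidesmosome collagen, and COL18A1, the precursor of endostatin, were both named after their values were seen, and were higher in both libraries labelled FerKD, at log2 fold changes of 0.34 (adjusted p = 0.384) and 0.24 (adjusted p = 0.381). COL18A1 shares 16.4% of its exonic bases with SLC19A1, and reads of the 2 genes cannot be told apart there.

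Type VI collagen, which forms beaded microfilaments at the border of the basement membrane, was among the most abundant. COL6A1 had 196 and 195 CPM in the libraries labelled FerKD, against 169 and 164 CPM in control, and COL6A2 had 151 and 136 CPM in the libraries labelled FerKD, against 149 and 119 CPM in control. COL6A1 did not overlap between groups and COL6A2 did (log2 fold changes 0.23 and 0.10, edgeR adjusted p = 0.333 and 0.764). The long chains that complete the type VI trimer were almost missing: COL6A3 had 2 and 1 counts in the libraries labelled FerKD and 0 and 3 in control, COL6A6 had 3 and 0 in the libraries labelled FerKD and 5 and 1 in control, and COL6A5 had 0 throughout.

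In 2 smaller families the partner chains were at unequal levels. COL8A2, of the short-chain type VIII network, had 4.23 and 4.97 CPM in the libraries labelled FerKD, against 2.35 and 3.18 CPM in control, while COL8A1 had 54.7 and 62.0 CPM in the libraries labelled FerKD and 51.3 and 70.0 CPM in control. COL8A2 did not overlap between groups (log2 fold change 0.73 ± 0.26 SE, edgeR adjusted p = 0.192) and COL8A1 did. The per-kilobase ratio COL8A1/COL8A2 was 6.43 and 6.19 in the libraries labelled FerKD, against 10.8 and 10.9 in control (exact permutation test, two-sided p = 0.333). COL9A3, of a fibril-associated collagen known from cartilage, had 29.2 and 30.3 CPM in the libraries labelled FerKD and 23.2 and 20.3 CPM in control, without overlap (log2 fold change 0.45 ± 0.15 SE, adjusted p = 0.162). Its usual partners were low or missing, COL9A2 at 4.29 to 5.68 CPM over the 4 libraries and COL9A1 at 0. COL20A1, with 13 and 13 counts in the libraries labelled FerKD and 6 and 1 in control, lay at the edge of what could be tested (log2 fold change 1.63 ± 0.78 SE, adjusted p = 0.313).

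**Figure D4:**
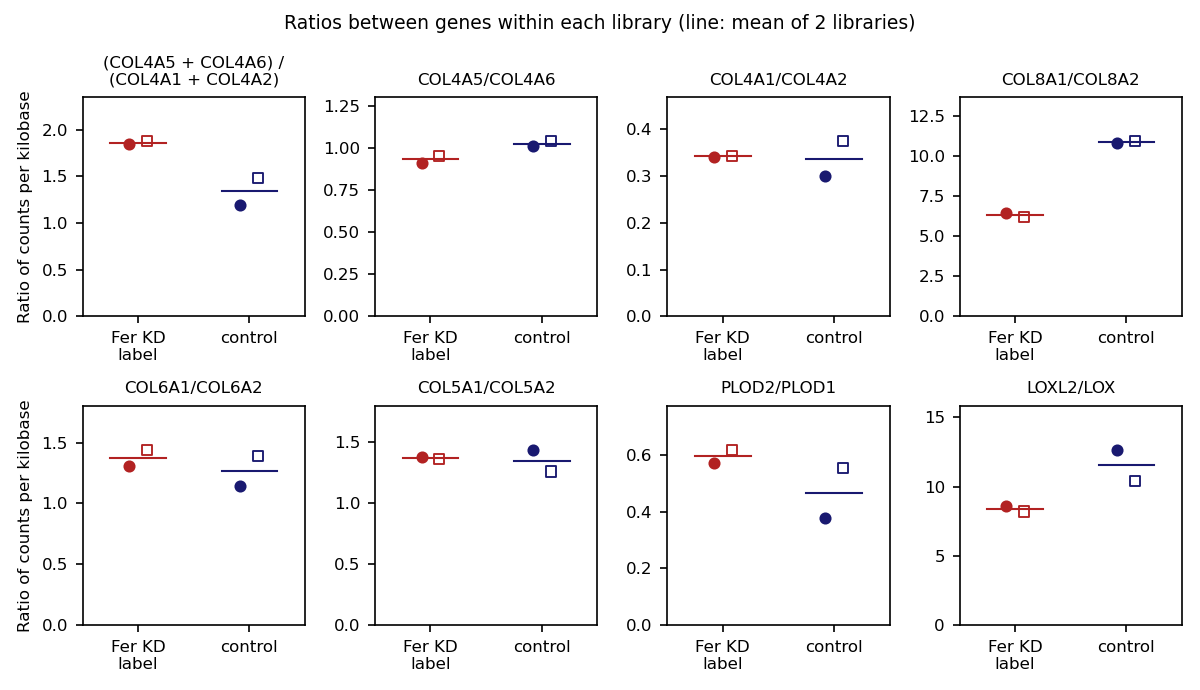
Ratios between genes in each library, from counts per kilobase, with libraries labelled FerKD left of control and a line at the mean of 2 libraries. COL8A1/COL8A2 lies near 6 in the libraries labelled FerKD and near 11 in control, and COL5A1/COL5A2, COL4A1/COL4A2 and COL6A1/COL6A2 overlap.

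Among the lysyl oxidases, which oxidise lysines so that chains cross-link, LOXL2 was both the most abundant member and the one with the smallest p. LOXL2 (ENSG00000134013) had 556 and 572 CPM in the libraries labelled FerKD, against 762 and 755 CPM in control. The groups lay well apart, with little spread inside either. The log2 fold change was -0.43 ± 0.11 (SE; 95% interval -0.67 to -0.19), with an adjusted p of 0.0932 in edgeR. LOXL1 had 249 and 243 CPM in the libraries labelled FerKD, against 309 and 270 CPM in control, also without overlap, at a log2 fold change of -0.23 (adjusted p = 0.344). It shares 9.21% of its exonic bases with LOXL1-AS1, and strand is not stated. LOXL2 shares 5.22% with AC090197.1 and ENTPD4, and LOXL3 shares 19.3% with DOK1 and HTRA2.

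The other lysyl oxidases were lower in level and near even between groups. LOX had 60.1 and 64.7 CPM in the libraries labelled FerKD, against 55.8 and 67.2 CPM in control. LOXL3 had 5.46 and 4.93 CPM in the libraries labelled FerKD and 5.09 and 4.20 CPM in control, and LOXL4 had 5.42 and 5.12 CPM in the libraries labelled FerKD and 4.89 and 4.61 CPM in control. Only LOXL4 of these 3 had groups that did not overlap. The per-kilobase ratio LOXL2/LOX, chosen after the values were seen, was 8.58 and 8.20 in the libraries labelled FerKD and 12.7 and 10.4 in control.

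Of the lysyl hydroxylases, which modify lysines before cross-linking, none passed the test. PLOD1 had 174 and 168 CPM in the libraries labelled FerKD, against 238 and 201 CPM in control. PLOD3, which also glycosylates hydroxylysine, had 173 and 165 CPM in the libraries labelled FerKD, against 217 and 206 CPM in control. Both were lower in both libraries labelled FerKD, at log2 fold changes of -0.36 ± 0.13 and -0.33 ± 0.12 (SE; edgeR adjusted p = 0.182 and 0.190). PLOD2, which hydroxylates the telopeptide lysines, had 143 and 149 CPM in the libraries labelled FerKD and 130 and 160 CPM in control, inside the control range. The ratio PLOD2/PLOD1, chosen after the values were seen, was 0.570 and 0.618 in the libraries labelled FerKD and 0.379 and 0.553 in control, without overlap.

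The prolyl hydroxylases, whose product keeps the helix stable, did not pass the test either. P4HA2, the most abundant catalytic subunit of prolyl 4-hydroxylase here, had 116 and 117 CPM in the libraries labelled FerKD and 112 and 101 CPM in control. P4HA1 had 26.6 and 28.4 CPM in the libraries labelled FerKD and 26.8 and 33.9 CPM in control, and P4HA3 had 11.4 and 10.8 CPM in the libraries labelled FerKD and 11.7 and 12.5 CPM in control. Their log2 fold changes were 0.13 (95% interval -0.15 to 0.41), -0.14 (-0.50 to 0.21) and -0.12 (-0.50 to 0.25). Only P4HA1 of the 3 had overlapping groups. P3H1, the prolyl 3-hydroxylase, had 109.2 and 107.2 CPM in the libraries labelled FerKD and 132.3 and 109.5 CPM in control.

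The chaperone and the propeptide genes had intervals that held 0. SERPINH1 had 306 and 293 CPM in the libraries labelled FerKD, against 371 and 307 CPM in control, without overlap (log2 fold change -0.18, 95% interval -0.46 to 0.11). BMP1, the proteinase that removes the carboxyl propeptide, had 392 and 387 CPM in the libraries labelled FerKD and 425 and 344 CPM in control. The control libraries enclosed both values of the libraries labelled FerKD (log2 fold change 0.02, 95% interval -0.27 to 0.31). PCOLCE, which enhances BMP1 and, like P3H1, was named after its values were seen, had 9.64 and 9.79 CPM in the libraries labelled FerKD and 12.7 and 10.4 CPM in control.

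Summed over genes, the chains took 0.239% and 0.242% of all counts in the libraries labelled FerKD, against 0.199% and 0.212% in control. This difference of 0.0348 percentage points (exact permutation test, two-sided p = 0.333) shrank to 0.0141 when mitochondrial counts were left out of the denominator, where the shares were 0.264% and 0.267% in the libraries labelled FerKD and 0.240% and 0.264% in control. The processing genes took 0.248% and 0.245% of all counts in the libraries labelled FerKD, against 0.264% and 0.245% in control, a difference of -0.00827 percentage points. Outside the mitochondrial counts they took 0.274% and 0.271% in the libraries labelled FerKD, against 0.318% and 0.305% in control, without overlap and with a larger difference of -0.0389 (exact permutation test, two-sided p = 0.333). Wilson 95% intervals of the chain shares were 0.237 to 0.241 and 0.240 to 0.244 in the libraries labelled FerKD, and 0.197 to 0.201 and 0.211 to 0.214 in control, covering counting error only.

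**Figure D5:**
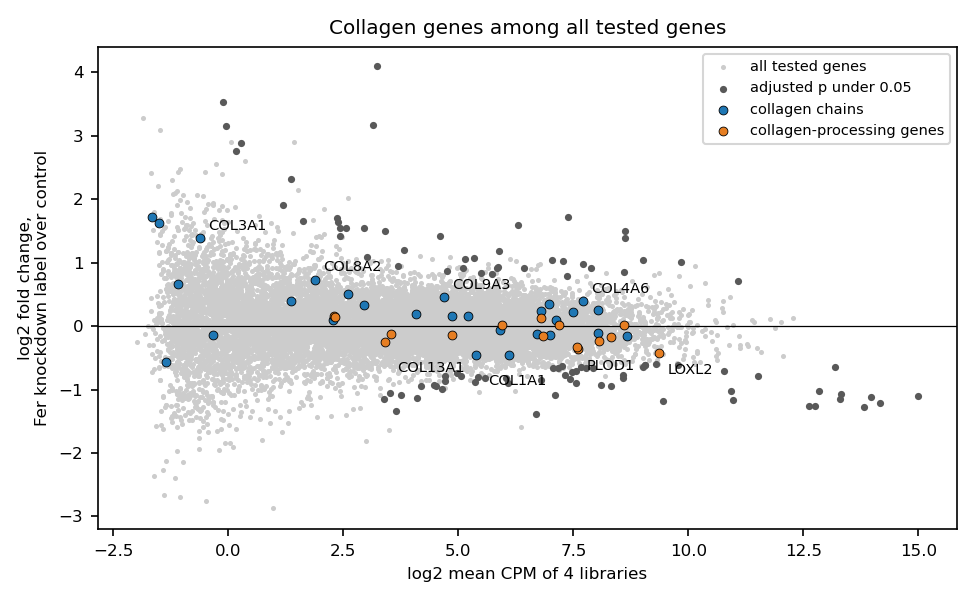
Log2 fold change of every tested gene, libraries labelled FerKD over control, against log2 mean CPM, with collagen chains, processing genes and the 99 genes past the threshold marked. None of the 43 members lies among the marked calls.

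The lists of genes linked to collagen outside the member list held 105 tested genes. Of these 5 were called (4.76%), all lower, against 0.646% of all genes, where 43 rose and 56 fell. The lists were chosen with earlier results of these data known, so the comparison of these shares is not a test. Of 17 tested genes for folding and modification in the endoplasmic reticulum, 0 rose and 0 fell, with a median log2 fold change of -0.04 against 0.01 for all genes. At an unadjusted p under 0.05 there were 2 (11.8%, against 17.7% of all genes). The 2 with the smallest p were CRTAP, the partner of P3H1, at 291 and 294 CPM in the libraries labelled FerKD and 367 and 374 CPM in control (-0.34, edgeR adjusted p = 0.161), and the disulfide isomerase PDIA3 (-0.33, adjusted p = 0.168). Of 17 procollagen export genes, 0 rose and 2 fell (median -0.05), and 5 were at an unadjusted p under 0.05 (29.4%, against 17.7% of all genes). CREB3L1, a transcription factor of the secretory pathway that is known in mouse bone to drive type I collagen expression, fell to 32.5 and 36.5 CPM in the libraries labelled FerKD, against 59.9 and 61.2 CPM in control (-0.81, adjusted p = 0.0354). KDELR1, a receptor that returns chaperones to the endoplasmic reticulum, fell to 165 and 174 CPM in the libraries labelled FerKD, against 275 and 264 CPM in control (-0.66, adjusted p = 0.0378).

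The lists of matrix partners, degradation and regulators gave 1 call each, where 0.646% of all tested genes were called. At an unadjusted p under 0.05 there were 4 partners (28.6%), 5 degradation genes (31.25%) and 6 regulators (25%). Of all genes 17.7% were under it. Of 14 tested fibril assembly partners 0 rose and 1 fell (median -0.18): TGFBI, a collagen-binding matrix protein, at 497 and 503 CPM in the libraries labelled FerKD and 779 and 741 CPM in control (-0.60, edgeR adjusted p = 0.0461). Of 16 degradation genes 0 rose and 1 fell (median -0.17): MMP2, which digests type IV collagen and gelatin, at 140 and 124 CPM in the libraries labelled FerKD and 240 and 249 CPM in control (-0.90, adjusted p = 0.0182). Of 24 regulators 0 rose and 1 fell (median -0.06): TGFB1, a growth factor that induces collagen genes, at 160 and 157 CPM in the libraries labelled FerKD and 252 and 242 CPM in control (-0.64, adjusted p = 0.0436).

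For the other lists no gene passed. Of 11 collagen receptors 0 rose and 0 fell (median -0.18), and 4 were at an unadjusted p under 0.05 (36.4%, against 17.7% of all genes). The smallest p belonged to CD44 at -0.47 (edgeR adjusted p = 0.0893) and ENG, a TGF-beta co-receptor, at -0.38 (adjusted p = 0.168). Of 6 tested propeptide-removal genes 0 rose and 0 fell (median 0.01), and 2 were at an unadjusted p under 0.05 (33.3%, against 17.7% of all genes). These were the proprotein convertase PCSK6 at 0.69 (edgeR adjusted p = 0.168) and the N-propeptidase ADAMTS14 at -0.37 (adjusted p = 0.231). The 5 calls were all lost without either of the libraries labelled FerKD (edgeR adjusted p from 0.0568 to 0.705), with log2 fold changes of -0.99 to -0.60 in those fits. The calls of TGFB1 and TGFBI were also lost with scaling by library totals alone (0.0533 and 0.0549), and that of TGFBI with mitochondrial genes left out (0.0521).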

How the data were processed

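RNA-seq of 4 BEAS-2B libraries was used. The authors deposited raw read counts per gene with a gene length (an other, non-count column), per the file headers. HISAT2, featureCounts, DESeq2 and the builds hg19 and mm10 are named, without roles, in the submitters' processing notes; the annotation release and the strand setting were not given in the sources used here. Of 39635 entries 1 had no values. The column of Fer knockdown replicate 1 has a shortened name. Exon overlaps, chromosomes and the alternative lengths came from GENCODE release 29, and promoter windows from RefSeq (GRCh38.p14), by symbol. Exonic bases shared with other genes were also 16.6% for PCOLCE, 16.3% for KRT18, 18.9% for PDIA3 and 19.96% for PCSK6. Smaller overlaps are not all given.

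Counts were fitted with edgeR 4.0.16 (R 4.3.3, limma 3.58.1): filterByExpr left 15336 genes, TMM factors scaled libraries, and the quasi-likelihood test, two-sided and without a block, was adjusted by Benjamini-Hochberg at 0.05. SEs are the fold change over the root of the F statistic, and the residual degrees of freedom were 2. DESeq2 1.42.0 was an alternative. Fold changes are Fer knockdown label over control. The steps were tested on simulated counts. Over genes, the differences between replicates 1 and 2 had a correlation of 0.0373 between the groups. That value cannot show whether the replicate numbers pair the libraries. Total counts of 21422976 to 25169713 per library limit the precision of genes near the filter.

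Named with values per library were FER, the 14 members with the smallest p, the 12 with the highest level per kilobase, and the P4HA, PLOD and LOX families, and from each list up to 3 calls or the 2 smallest p. Members and lists were chosen with earlier results of these data known.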

Additional observations from a re-analysis of the deposited data

How the results depend on the processing

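The count of genes past the threshold was 99 as reported. It was 132 with DESeq2 size factors, 117 with a filter of 5 CPM in 2 libraries and 76 without mitochondrial genes. It was 443 with library totals alone, 993 with no filter on low counts, 990 with the replicate block, 580 with DESeq2, and 56 to 4734 when 1 library was left out. Members past the threshold were 1 with no filter (LOXL2), 2 with DESeq2, 0 to 18 with 1 library left out, and 0 otherwise, the replicate block included. Whether the replicate numbers pair the libraries is not known. The median log2 fold change of members was 0.264 with library totals, which moved the median of all genes to 0.178, 0.0138 with no filter, -0.00205 with the 5 CPM filter, and 0.00295 to 0.122 with 1 library left out. That of chains was 0.374 with library totals, 0.132 with no filter and 0.143 with the 5 CPM filter. Library totals turned the sign of COL4A2 (0.0105), COL5A1 (0.0584), P4HA1 (0.0230) and P4HA3 (0.0407), and the 5 CPM filter that of PLOD2 (-0.00569). Leaving out 1 library turned BMP1 (-0.150 to 0.172), COL6A2 (-0.0771 to 0.267), LOX (-0.111 to 0.140), P4HA1 (-0.305 to 0.0177), PLOD2 (-0.139 to 0.145) and FER (-0.162 to 0.194). None of these passed the test as reported, and the cause was not tested. Depth limits the chains under about 5 CPM, whose intervals are widest.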
